A study of Mus musculus with 6 samples.

Results

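TEAD proteins are transcription factors at the end of the Hippo pathway, a kinase cascade that restrains growth in many tissues. The account below covers 10 genes of mouse blood progenitors: the 4 TEAD factors Tead1, Tead2, Tead3 and Tead4, the coactivators Yap1 and Wwtr1, and the kinases Stk3, Stk4, Lats1 and Lats2. All 10 were found by symbol among the 24376 gene IDs of the deposited tables. The set was chosen by name, as one factor family and the core of one pathway, and it was chosen on the difference that Tead3 shows between the groups of these same libraries. The values of Tead3 between the groups are therefore a description, given without a p.

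Blood progenitors were enriched from the fetal liver of C57BL/6 mice at embryonic day E14.5, infected with a retrovirus and cultured for 3 days. The retrovirus carried an shRNA against Samd14 in 3 samples (shSamd14) and a control shRNA in the other 3 (control). An shRNA is a short hairpin that the cell processes into a small RNA that lowers matching transcripts, and Samd14 encodes a sterile alpha motif protein. Cells negative for CD71 and Ter119, surface markers of maturing erythroid cells, were then sorted and their polyadenylated RNA was sequenced. Both groups share the strain, the infection, the culture and the sort. The labels give neither the transcript that the control hairpin matches nor the share of cells infected. They name 1 hairpin against Samd14, so an effect of that hairpin on other transcripts cannot be told apart from an effect of Samd14. The labels do not state whether the libraries of a group derive from different animals. The p-values below therefore set a group difference only against the scatter of these samples, and that scatter may be technical.

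The libraries held 23862151 to 26462797 expected counts in the shSamd14 group and 20584169 to 24069711 in the control group, at which depth 3 counts correspond to between 0.113 and 0.146 counts per 1000000 (CPM). Samd14 had 41.9, 38.8 and 39.4 CPM in the shSamd14 libraries, against 82.0, 82.1 and 83.8 CPM in the control libraries, so that each library matched its label. Markers of blood progenitors were expressed for 10 of 10 genes, from Myb, a progenitor transcription factor with a mean of 177 transcripts per 1000000 (TPM), to the transcription factor Runx1 at 24.3 TPM. The summed level of these markers was 797 to 866 TPM in shSamd14 and 807 to 868 TPM in control libraries. Single markers differed more than the sum: the groups did not overlap for 4 of the 10, against 20.7% of all genes tested. Of these, Kit was lower in shSamd14, and Gata2, Tal1 and Lmo2 were higher. None of the 10 passed an adjusted p of 0.05 in the edgeR fit over all genes. In the fit over all 12670 genes with enough counts, 2.58% of genes passed an adjusted p of 0.05, with 1.32% higher and 1.26% lower in shSamd14. The groups did not overlap, in either direction, for 20.7% of genes tested. The number that passed was 327 with all libraries, 128 without shSamd14 replicate 2 and 153 without control replicate 1.

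In the Hippo pathway, the kinases encoded by Stk3 and Stk4 (MST2 and MST1, the relatives of the fly kinase Hippo) activate the kinases encoded by Lats1 and Lats2. These phosphorylate the coactivators YAP and TAZ, which Yap1 and Wwtr1 encode, and thereby keep them out of the nucleus. When YAP or TAZ reach the nucleus they bind TEAD proteins, which have the DNA-binding domain and recognise the M-CAT element. In blood cells Stk4 is best known for its part in lymphocyte survival and trafficking, and YAP and TAZ are known mainly from epithelia, stroma and endothelium.

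The 4 Tead genes are paralogs, and RSEM, the counting program, divides a read that matches several genes between them. The longest identical stretches between their transcripts are shown because they set how far Tead3 can be told from Tead2 and Tead4. They were read from the coding part of GENCODE M21 transcripts, with the identical bases in capitals and 15 flanking bases on each side in lower case. The stretch that Tead3 shares with Tead4 is 59 bases long and codes for part of the carboxy-terminal domain that binds YAP and TAZ.
Tead3: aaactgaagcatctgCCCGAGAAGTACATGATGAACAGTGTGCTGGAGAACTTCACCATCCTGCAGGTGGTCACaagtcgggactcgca
Tead4: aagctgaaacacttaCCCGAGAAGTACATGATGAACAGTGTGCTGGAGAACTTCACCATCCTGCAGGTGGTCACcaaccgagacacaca

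The stretch that Tead3 shares with Tead2 is 35 bases long and codes for part of the DNA-binding TEA domain.
Tead3: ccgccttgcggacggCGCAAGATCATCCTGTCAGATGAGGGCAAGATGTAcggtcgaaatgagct
Tead2: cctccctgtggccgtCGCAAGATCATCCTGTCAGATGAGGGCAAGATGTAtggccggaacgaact

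Tead1 shared at most 17 identical bases with any of the other 3. Of the 2989 different 25-base words in the Tead3 transcripts found in GENCODE M21, which are 3 of the 5 in the deposited tables, 48 (1.61%) also occurred in another gene, 35 of them in Tead4 and 13 in Tead2. The expected counts of Tead3 were whole numbers in all 6 libraries, within 0.005, so the counts show no sign of a read divided between Tead3 and another gene. The kinases of a pair had shorter runs in common, 23 bases between Stk3 and Stk4 and 22 bases between Lats1 and Lats2. Lats2 is the exception for another reason: 2932 of its 6687 different 25-base words also occur in Gm49361. This annotated gene overlaps Lats2 on the same strand and has no row in the deposited tables. The Lats2 counts may therefore include reads of Gm49361. Stk4 overlaps Tomm34 over 848 bases on the opposite strand. The span of Yap1 overlaps that of Gm20416, an annotated gene without counts here, over 11167 bases on the opposite strand. Of the 25-base words of Yap1, 93 (2.22%) also occur in Gm20416. The labels do not say whether reads were counted by strand, so the Yap1 counts may include reads of Gm20416.

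Levels were compared between genes in TPM, which is scaled per transcript length. A gene was called expressed at 1 TPM or more in all 6 libraries, low at 0.1 TPM or more in all 6, and otherwise trace. By these limits 4 of the 10 genes were expressed (Stk4, Lats1, Stk3 and Lats2), 2 were low (Tead3 and Tead2), and 4 were trace (Yap1, Wwtr1, Tead4 and Tead1), while 10928 of the 24376 IDs in the tables (44.8%) were expressed. The 4 expressed genes are thus the 4 kinases, and neither the coactivators nor any TEAD factor reached the limit in every library. With a limit of 0.5 TPM, Tead3 joins the expressed genes and makes 5.

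**Figure D1:**
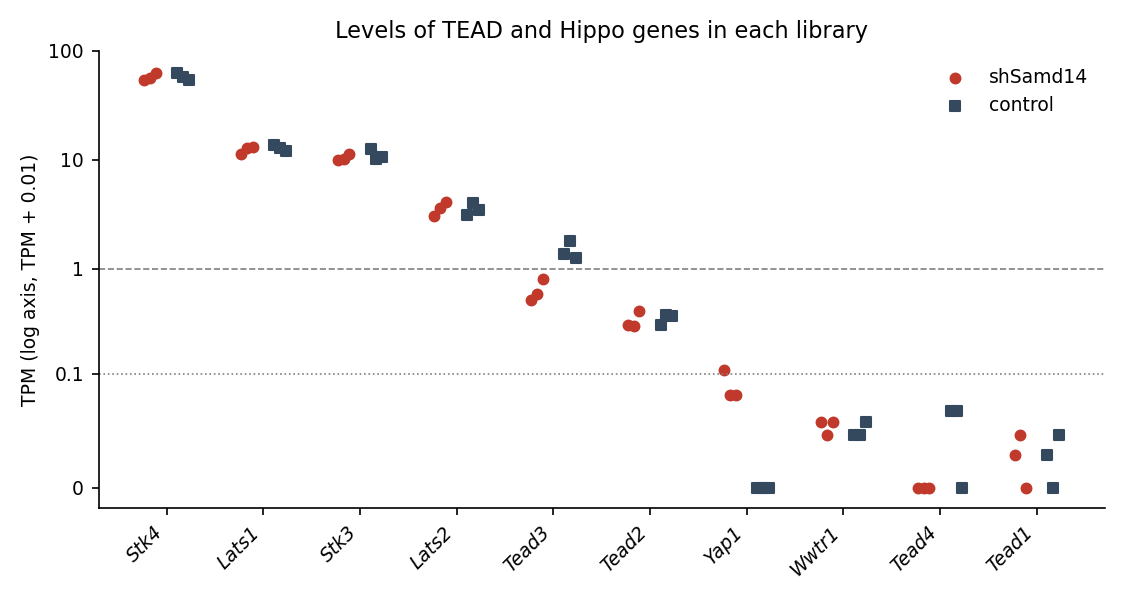
TPM of the 10 genes in each library, on a log axis of TPM + 0.01, ordered by the mean of all 6 libraries; circles are shSamd14 and squares are control libraries, the dashed line is 1 TPM and the dotted line 0.1 TPM. The 4 kinases lie above the dashed line in every library, Tead3 lies on both sides of it, and Yap1, Wwtr1, Tead4 and Tead1 lie near the bottom.

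Stk4 (chromosome 2, 164070322 to 164155524, plus strand, mm10), the upstream kinase MST1, was the highest of the 10 genes. It had 53.4, 56.6 and 62.7 TPM in the shSamd14 libraries, against 62.0, 58.0 and 54.1 TPM in the control libraries. The groups overlap, and both the lowest and the highest value belong to shSamd14 libraries. Its paralog Stk3 (chromosome 15, 34875496 to 35178921, minus strand), the kinase MST2, had 9.91, 10.2 and 11.2 TPM in shSamd14 and 12.6, 10.3 and 10.7 TPM in control libraries. Stk4 made up 84.6 ± 0.242% of the summed TPM of the 2 kinases in shSamd14 and 83.8 ± 0.971% in control libraries (SD, n = 3 each), so transcripts of MST1 outnumbered those of MST2 in all 6 libraries.

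Lats1 (chromosome 10, 7681214 to 7716460, plus strand), a kinase that phosphorylates YAP and TAZ, had 11.3, 13.0 and 13.1 TPM in shSamd14 and 13.7, 12.9 and 12.1 TPM in control libraries. Lats2 (chromosome 14, 57689662 to 57758388, minus strand), its paralog, was lower, with 3.08, 3.65 and 4.09 TPM in shSamd14 and 3.11, 4.06 and 3.45 TPM in control libraries. Lats1 therefore supplied most of the transcripts of the pair, 77.6 ± 1.19% in shSamd14 and 78.4 ± 2.78% in control libraries (SD, n = 3 each). In the order of the 10 levels Lats1 lies next above Stk3, 1.17-fold over it, and their ranges overlap, although Lats1 was higher within each of the 6 libraries. Stk4 lay 4.56-fold above Lats1, and Stk3 3.03-fold above Lats2, over all 6 libraries, while Lats2 lay 5.70-fold above Tead3 in shSamd14 and 2.39-fold above it in control libraries, with no overlap of ranges in these 3 steps. The 4 kinases summed to 77.7, 83.4 and 91.1 TPM in shSamd14 and 91.3, 85.2 and 80.3 TPM in control libraries.

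The coactivators were at the edge of detection. Yap1 (chromosome 9, 7931999 to 8004596, minus strand) had expected counts of 4, 2 and 4 in the shSamd14 libraries, against 0, 0 and 0 in the control libraries. All 10 counts thus came from shSamd14 libraries, with an exact Poisson 95% interval of 4.80 to 18.4 for their sum and of 0 to 3.69 for the sum of 0 in control. These intervals come close to each other, so no fold is given. It had too few counts for the test; in an edgeR fit without the filter on low counts, the quasi-likelihood test gave an adjusted p of 0.0965. Wwtr1 (chromosome 3, 57455649 to 57575910, minus strand), which encodes TAZ, had counts of 2, 1 and 2 in shSamd14 and 1, 1 and 2 in control libraries, which overlap. Yap1 and Wwtr1 summed to 0.14, 0.08 and 0.09 TPM in shSamd14 and 0.02, 0.02 and 0.03 TPM in control libraries. Poisson intervals and floors cover counting error only. They do not cover reads of Gm20416, which overlaps Yap1 on the opposite strand. Whether such reads are among the 10 counts of Yap1 was not tested.

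**Figure D2:**
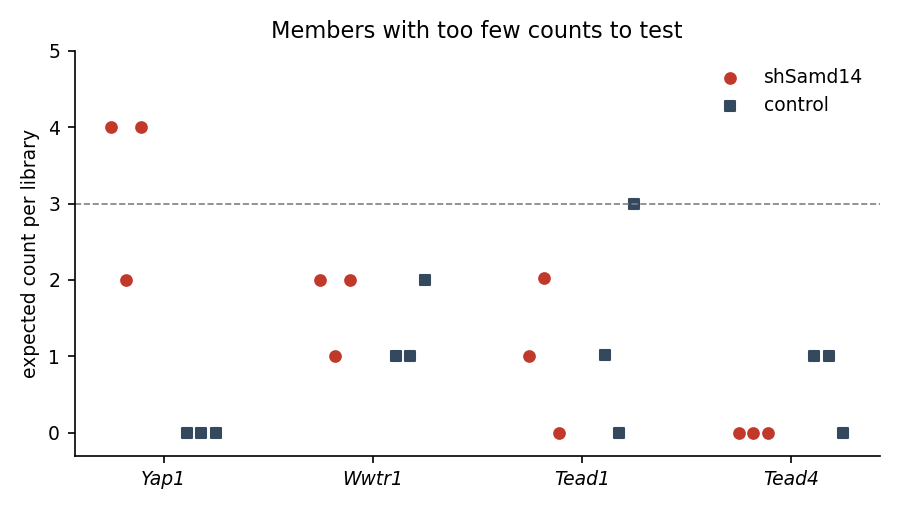
Expected counts per library of Yap1, Wwtr1, Tead1 and Tead4; circles are shSamd14 and squares are control libraries, and the dashed line marks 3 counts. Only Yap1 in 2 shSamd14 libraries, with 4 counts each, lies above the line, and Tead1 in 1 control library lies on it.

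Among the TEAD factors themselves Tead3 was the highest in mean TPM, 1.92-fold over Tead2 in shSamd14 and 4.31-fold over it in control libraries. Tead2 (chromosome 7, 45215753 to 45233644, plus strand) had 0.30, 0.29 and 0.40 TPM in shSamd14 and 0.30, 0.37 and 0.36 TPM in control libraries, from 7 to 12 counts a library. Tead1 (chromosome 7, 112679318 to 112906807, plus strand) had expected counts of 1, 2.02 and 0 in shSamd14 and 1.02, 0 and 3 in control libraries. Tead4 (chromosome 6, 128224288 to 128300823, minus strand) had 0, 0 and 0 counts in shSamd14 and 1, 1 and 0 in control libraries. Neither of these exceeded 3 counts in any library, so no difference between the groups was detectable at this depth. In order of level Yap1, Wwtr1, Tead4 and Tead1 cannot be ranked, since each overlaps its neighbour.

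Tead3 (ENSMUSG00000002249; chromosome 17, 28331671 to 28350817, minus strand) was the member with enough counts to test whose groups lay apart. Its counts were 19, 20 and 31 in the shSamd14 libraries, against 40, 63 and 45 in the control libraries. All shSamd14 libraries lie below all control libraries, with shSamd14 replicate 3 nearest to the control range and control replicate 2 the highest. In TPM it had 0.51, 0.58 and 0.81 in shSamd14 and 1.37, 1.81 and 1.26 in control libraries, which puts it under 1 TPM in each shSamd14 library and over it in each control library. In CPM the means were 0.915 ± 0.206 in shSamd14 and 2.18 ± 0.487 in control libraries (SD, n = 3 each), a log2 fold change of -1.24 (SE 0.25), or 0.422 of the control level. In a bulk sample fewer cells that hold the transcript and less of it per cell cannot be told apart.

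The Tead3 difference rests on 70 counts in all in shSamd14 libraries (exact Poisson 95% interval 54.6 to 88.4) and 148 in control libraries (125 to 174). Counting error alone gives a coefficient of variation of 20.7% in shSamd14 and 14.2% in control libraries at these counts, and the observed values were 22.5% and 22.3% in the same order. With 1 library left out in turn the log2 fold change of Tead3 lay between -1.45 and -1.04. On the log2(TPM + 1) scale it was -0.60, since a pseudocount of 1 is as large as the level itself, and on log2(TPM + 0.1) it was -1.11.

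The sum of the 4 Tead genes was 0.82, 0.89 and 1.21 TPM in shSamd14 and 1.72, 2.22 and 1.64 TPM in control libraries. Tead3 made up 62.2, 65.2 and 66.9% of this sum in shSamd14 and 79.7, 81.5 and 76.8% in control libraries.

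**Figure D3:**
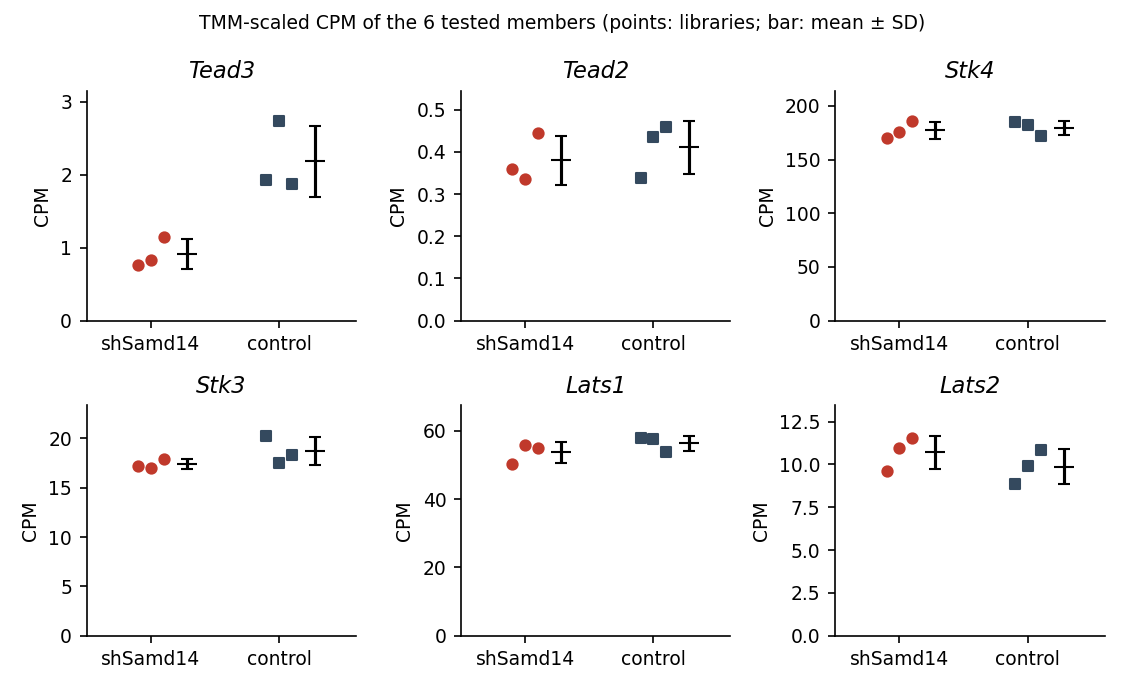
TMM-scaled CPM of the 6 genes with enough counts to test, with a linear axis from 0 for each gene; circles are shSamd14 and squares are control libraries, and the bar beside them is the mean ± SD of 3 libraries. The groups lie apart for Tead3, at 0.915 ± 0.206 CPM in shSamd14 and 2.18 ± 0.487 CPM in control, and overlap for the other 5 genes.

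Of the 6 members tested, Tead3 was among the genes that passed the threshold, and the choice of the set fixed that. Nothing is therefore read from its call or from a count of 1 in 6. Tead3 did not pass in edgeR without shSamd14 replicate 2 or without control replicate 2, nor in limma on log2(TPM + 1) or on log2(TPM + 0.1) with all libraries. Lats1, Lats2, Stk3, Stk4 and Tead2 were set against the replicate error with edgeR's quasi-likelihood test and Benjamini-Hochberg adjustment over all 12670 genes, and none passed. Stk4 had 177 ± 8.08 CPM in shSamd14 and 180 ± 6.60 CPM in control libraries (SD, n = 3 each), a log2 fold change of -0.02 (95% interval -0.15 to 0.11, adjusted p = 0.913 in edgeR). Lats1 had 53.7 ± 3.05 CPM in shSamd14 and 56.4 ± 2.22 CPM in control libraries, a log2 fold change of -0.07 (interval -0.21 to 0.07, adjusted p = 0.676 in edgeR).

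For Stk3 the means were 17.4 ± 0.506 CPM in shSamd14 and 18.7 ± 1.41 CPM in control libraries, with a log2 fold change of -0.11 (interval -0.30 to 0.08, adjusted p = 0.623 in edgeR). For Lats2 they were 10.7 ± 0.978 CPM in shSamd14 and 9.88 ± 1.01 CPM in control libraries, with a log2 fold change of 0.11 (interval -0.14 to 0.37, adjusted p = 0.707 in edgeR). The intervals of these 4 kinases leave room for small changes in either direction. The RSEM length of Lats2 varied between libraries, so its TPM and its counts order the libraries differently: control replicate 2 had 228 counts and 4.06 TPM, control replicate 3 had 261 counts and 3.45 TPM. With the effective lengths as offsets the log2 fold change of Lats2 was 0.01. Tead2 had 0.380 ± 0.0574 CPM in shSamd14 and 0.411 ± 0.0637 CPM in control libraries, and its interval for the log2 fold change, -0.89 to 0.66 (edgeR adjusted p = 0.923), is too wide to tell a change of up to that size from none.

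Promoter sequence was looked at for Tead3 because its level differed and because TEAD proteins bind a short element, GGAATG, the core of M-CAT. The RefSeq promoter table (GRCm38.p6) held windows of 250 bases before and 50 bases after a transcription start for 7 of the 10 genes, 11 windows in all; Tead1, Tead4 and Stk3 had none there. GGAATG was searched on both strands. It occurred in 2 of the 3 Tead3 windows, in 1 of the 2 Lats2 windows and in the windows of Yap1 and Wwtr1, and in no window of Tead2, Lats1 or Stk4, against 14.7% of all 32851 windows in the table. The Wwtr1 windows overlap and hold the same match, so windows of a gene are not independent and no enrichment is read from these hits. The Tead3 window with most matches, on the minus strand at chr17:28350551-28350850, held 3, at bases 128, 137 and 253 counted from its 5′ end, and the start site is base 251. The matches are in capitals.
Tead3 promoter: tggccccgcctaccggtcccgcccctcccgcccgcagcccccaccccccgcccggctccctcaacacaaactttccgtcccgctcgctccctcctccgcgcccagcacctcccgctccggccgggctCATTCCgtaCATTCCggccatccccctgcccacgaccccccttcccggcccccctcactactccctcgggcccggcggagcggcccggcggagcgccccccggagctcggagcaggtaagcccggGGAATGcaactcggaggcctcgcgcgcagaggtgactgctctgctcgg

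This window had a GC content of 75.3% and 34 CpG sites, against a median of 52.7% and 7 sites over the windows of the table. The 6-base words AGATAA and TGATAA, which GATA factors of blood cells bind, were also searched on both strands. One of them occurred in 18.6% of all windows and, among these genes, only in the Stk4 window. A match is a description of the letters and does not show that a protein binds there.

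In the 3′ UTR, 4 words of 7 bases were looked for that came from an earlier search of these same data and so support nothing here. None of the 6 tested members held any of them in its longest annotated 3′ UTR, Tead3 included. Of the 11870 genes tested and searched, 14.9% held CTGATTA or the word TGATTAA, and 22.7% held CAAGTGT or the word AAGTGTA. Tead1, Yap1 and Wwtr1, which had too few counts to test, held at least one of the words.

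Other genes of the pathway were taken from a list of 50 regulators: adaptors and activators of the kinases, kinases that can act in place of Stk3 and Stk4, the cadherins upstream, and the STRIPAK phosphatase complex that acts against Stk3 and Stk4. By level 38 were expressed, 7 low and 5 trace, with the TEAD cofactor genes Vgll1 and Vgll2 at 0 counts in every library. Of 44 tested, none passed edgeR's quasi-likelihood test, and 9 had an unadjusted p under 0.05 in edgeR (3 higher and 6 lower), against 1900 of all 12670 genes tested. DESeq2 called 2 lower among the 43 with an adjusted p there, and limma on TPM called 0 of the 39 that passed its filter, which Fat1 did not. Their median log2 fold change was 0.01, with 24 positive and 20 negative, against 0.006 over all genes tested, and the groups did not overlap for 11 of the 44, against 20.7% of all genes tested.

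The best expressed of these regulators were Ppp2r1a, the scaffold subunit of protein phosphatase 2A and part of STRIPAK (mean 145.8 TPM over 6 libraries), and Mob1a, the cofactor that activates LATS kinases (104.7 TPM). Csnk1d, a casein kinase that marks YAP for degradation (92.4 TPM), Stk25 (87.6 TPM) and Stk24 (75.2 TPM), kinases of STRIPAK, and Taok3 (83.8 TPM), a kinase of the TAO family, followed. Some adaptors and inhibitors of the core, named for their role after their values were seen, were expressed as well. These were Mob1b, the paralog of Mob1a, at 65.5 TPM, Nf2, which encodes Merlin, at 55.2 TPM, Sav1, the scaffold of Stk3 and Stk4, at 46.4 TPM, and Vgll4, which competes with YAP for TEAD proteins, at 9.39 TPM. Others of the list were low or trace, such as Amotl2 at 0.97 TPM, Ajuba at 0.462 TPM and Wwc1 at 0.03 TPM.

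Strn3, a striatin subunit of STRIPAK, was the gene of this list with the smallest p. It had 49.2, 54.5 and 45.5 CPM in shSamd14 and 63.0, 62.3 and 57.1 CPM in control libraries, with all shSamd14 libraries lowest. The log2 fold change was -0.29 (SE 0.08, adjusted p = 0.0586 in edgeR), and DESeq2, with 0.0362, called it. Fat1, an atypical cadherin related to the fly Hippo receptor Fat, had 4.15, 3.94 and 5.41 CPM in shSamd14 and 7.05, 6.10 and 7.12 CPM in control libraries. Again no shSamd14 library reached the control range. Its log2 fold change was -0.58 (SE 0.15, adjusted p = 0.0639 in edgeR), and without shSamd14 replicate 3 the adjusted p was 0.0227.

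Stk26, a germinal centre kinase of STRIPAK, had 89.4 ± 6.67 CPM in shSamd14 and 76.3 ± 3.85 CPM in control libraries (SD, n = 3 each), which is 0.23 ± 0.07 on the log2 scale (SE; edgeR adjusted p = 0.108). Mob1a had 258 ± 4.85 CPM in shSamd14 and 294 ± 10.3 CPM in control libraries, which is -0.19 ± 0.06 on the log2 scale (SE; edgeR adjusted p = 0.125), and DESeq2 called it with 0.0471. The most abundant regulator, Ppp2r1a, had a log2 fold change of 0.02, whose sign turned with 1 library left out (-0.02 to 0.05).

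**Figure D4:**
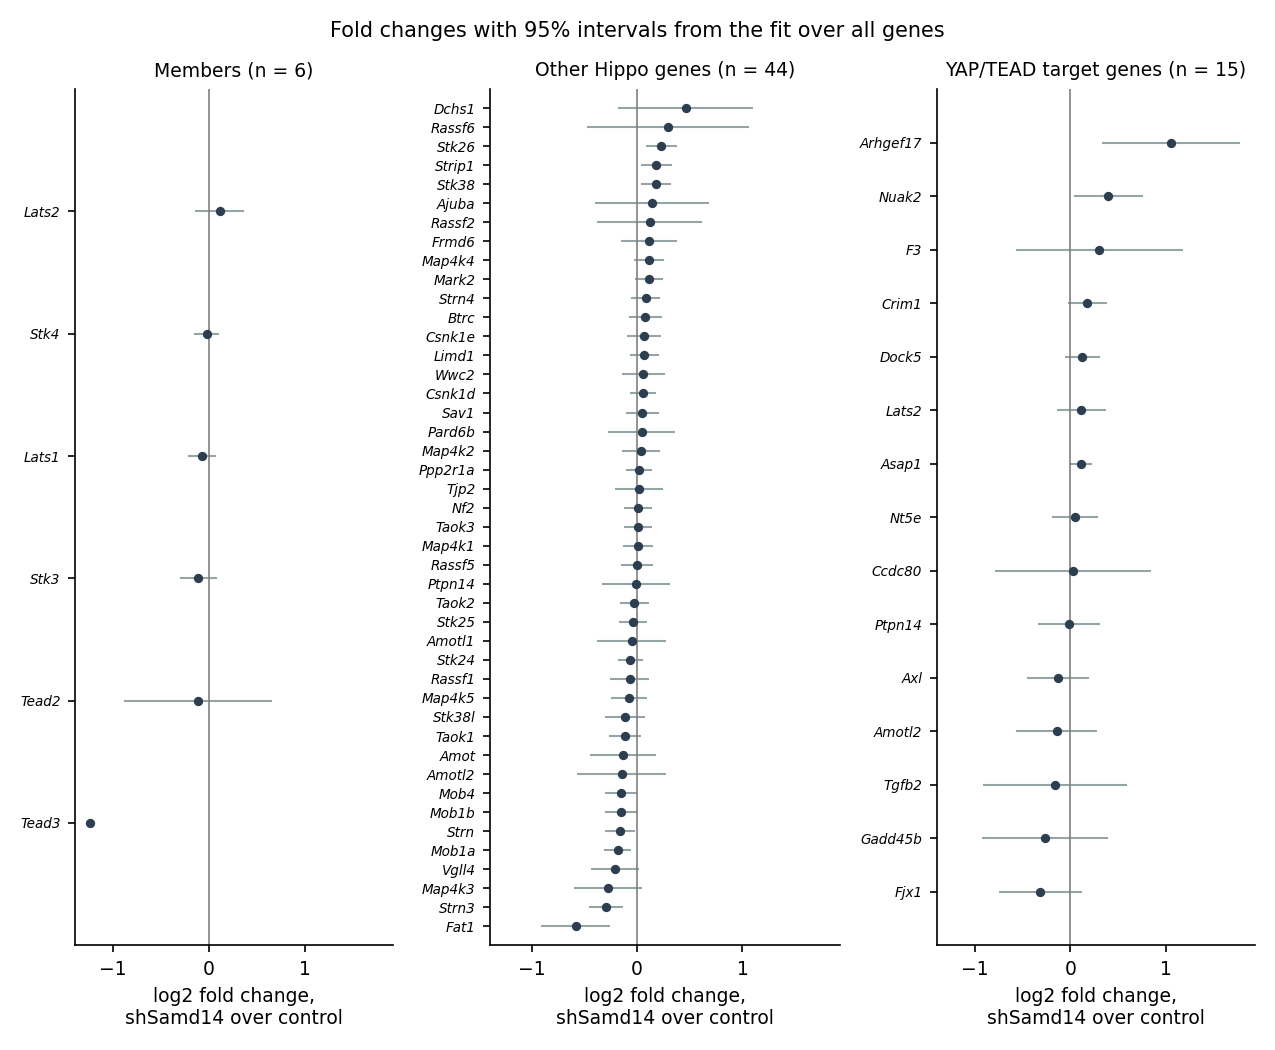
Log2 fold changes of shSamd14 over control for the 6 members, 44 other Hippo genes and 15 target genes tested, one row a gene and sorted by value in each panel; bars are 95% intervals from edgeR, and Tead3 is drawn without a bar because the set was chosen on its difference. Apart from Tead3 at -1.24, the members lie between -0.11 and 0.11, Fat1 is the lowest of the other Hippo genes at -0.58, and Arhgef17 is the highest target gene at 1.05. Lats2 is drawn among both the members and the target genes. Amotl2 and Ptpn14 are drawn among both the other Hippo genes and the target genes.

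Targets of YAP and TEAD were read from a list of 22 genes known from human tumour cells. Of these, 9 were expressed, 5 low and 8 trace. Lats2 in this list is also a member, and Amotl2 and Ptpn14 are also among the other Hippo genes, so the lists are not separate. Ccn2 (also called Ctgf) and Ankrd1, named after their values were seen as the most used reporters of YAP activity, were at 0 counts in all 6 libraries, as were Igfbp3 and Foxf2. Cyr61 (also called Ccn1), another common reporter, had a mean of 0.0183 TPM. Of the 15 targets tested none passed edgeR's quasi-likelihood test, and 2 had an unadjusted p under 0.05 in edgeR, against 1900 of all 12670 genes tested. DESeq2 called 0 of the 11 with an adjusted p there and limma 0 of the 10 that passed its filter, and Arhgef17 was in neither. The median log2 fold change was 0.05, with 9 positive and 6 negative, against 0.006 over all genes tested.

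The best expressed targets were Asap1, which encodes an Arf GTPase-activating protein (57.7 TPM), Dock5, an exchange factor of Rac (11.7 TPM), Crim1, a transmembrane protein that binds bone morphogenetic proteins (7.39 TPM), Nt5e, the ecto-nucleotidase CD73 (4.66 TPM), Lats2 and Nuak2, a kinase of the AMPK family (2.70 TPM). Arhgef17, a guanine nucleotide exchange factor, had 0.739 ± 0.0305 CPM in shSamd14 and 0.351 ± 0.12 CPM in control libraries (SD, n = 3 each), which is 1.05 ± 0.34 on the log2 scale (SE; edgeR adjusted p = 0.138). The log2 fold change of Nuak2 was 0.40 ± 0.17 (SE; edgeR adjusted p = 0.269), and that of Asap1 was 0.11 ± 0.06 (SE; edgeR adjusted p = 0.407). The groups did not overlap for Asap1 and Arhgef17, 2 of 15 genes, against 20.7% of all genes tested.

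Markers of cells that could be present beside the progenitors were read for their levels, since Tead3, Yap1 and Wwtr1 are known mainly from cells other than blood cells. Stromal markers summed to 8.49 to 10.6 TPM in shSamd14 and 8.2 to 10.7 TPM in control libraries, with Pdgfrb at a mean of 4.39 TPM the highest and Col3a1, Dcn and Lum at 0. Endothelial markers summed to 43.7 to 49.7 TPM in shSamd14 and 48.1 to 49.7 TPM in control libraries, with Eng, which progenitors also express, at 38.1 TPM and Cldn5 at 0. Hepatoblast markers summed to 40.7 to 50.8 TPM in shSamd14 and 44.6 to 87.8 TPM in control libraries, mostly from the apolipoprotein gene Apoa1 at 48.6 TPM, while Foxa2 was at 0. Macrophage markers summed to 21.9 to 31.5 TPM in shSamd14 and 20.8 to 33.5 TPM in control libraries, with Cd68 the highest at 13.7 TPM and C1qa and Timd4 at 0. Of the 10 genes in each list, only 3 stromal, 4 endothelial, 5 hepatoblast and 4 macrophage genes had enough counts to test. None of those tested passed in edgeR, against 2.58% of all genes tested. The ranges of the summed levels overlap between the groups in all 4 lists, but a sum can hide single genes. The groups did not overlap for 2 of the 4 endothelial genes tested, Eng and Tek, both lower in shSamd14. They did not overlap for 1 of the 4 macrophage genes tested, Vcam1, which was higher. The same held for 0 of the 3 stromal and 0 of the 5 hepatoblast genes tested, against 20.7% of all genes tested.

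Megakaryocyte markers had a higher summed level in shSamd14 libraries. All 10 were expressed, with the platelet chemokine Pf4 at 180 TPM the highest and the platelet glycoprotein Gp1bb at 3.14 TPM the lowest. They summed to 415 to 461 TPM in shSamd14 and 315 to 350 TPM in control libraries. In edgeR 3 of 10 passed, all higher, against 1.32% of all genes tested, while the other 7 did not pass. All 10 had a positive log2 fold change. The groups did not overlap for 8 of the 10, against 20.7% of all genes tested, and overlapped for Itgb3 and Gp1ba. Erythroid genes, from the alpha globin Hba-a2 at 3549 TPM to the membrane exchanger Slc4a1 at 10.7 TPM, were all expressed and summed to 11240 to 14470 TPM in shSamd14 and 6002 to 10890 TPM in control libraries, and none of the 10 passed in edgeR. Tfrc, which encodes CD71, had a mean of 306 TPM although the cells were sorted as lacking that surface protein. The part of megakaryocyte and erythroid transcripts in the Tead3 difference was not tested.

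The genes whose pattern over the 6 libraries was most like that of Tead3, by the root mean square difference of centred log2(CPM + 0.5), were Cgnl1 (0.162), which encodes a junction protein, Rasl11a (0.176), a small GTPase, and Matn1 (0.194), a matrix protein. Cgnl1 had 6.79, 7.80 and 8.67 CPM in shSamd14 and 10.9, 14.4 and 11.1 CPM in control libraries, with all shSamd14 libraries lower and control replicate 2 the highest, as for Tead3. None of the other members tested was among the close genes: Lats1 ranked 2270, Stk3 2593, Tead2 2754, Stk4 3643 and Lats2 8977. The likeness is a description over 6 libraries, and it includes the group difference for which Tead3 was chosen. Genes that share this difference tend to come out close, and members without it tend to come out distant. Neither the close genes nor the ranks add evidence on Tead3.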

How the data were processed

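RNA of 6 libraries was measured, 3 per group. The submitters' processing notes name RSEM 1.2.15, Bowtie 1.0.1, CASAVA 1.8.2 and mm10; their settings, the annotation release and the handling of strand are not stated there. Each table deposited by the authors lists, per the file headers, expected counts, TPM, FPKM, length and effective length of every gene. TPM, as deposited, is scaled for transcript length and to 1000000; the authors' FPKM served only to count expressed members, again 4. Of 24376 IDs, 23580 had a symbol in GENCODE M21 (GRCm38), 796 had none, and 6432 were at 0 throughout.

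The counts were rounded. With edgeR 4.0.16 (R 4.3.3), filterByExpr (minimum count 10, minimum total 15) kept 12670 genes, TMM factors were 0.986 to 1.02, and shSamd14 was compared with control by the two-sided quasi-likelihood test, with Benjamini-Hochberg adjustment over these genes. Standard errors were derived from the log2 fold change and the F statistic. The method was tested on simulated data. Libraries of a group were not duplicates (chi-square per gene 5.73 to 12.16).

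Sequences came from GENCODE M21 transcripts and the RefSeq promoter table (GRCm38.p6). The members and gene lists were chosen with earlier results of these data known. Named are all members, Samd14, per pathway list the genes that passed, the 6 with the highest mean TPM and the 3 with the smallest p, per marker list the highest and lowest by TPM, and the 3 tested genes most like Tead3. Alternatives were RLE and upper-quartile scaling, no filter or 1 CPM, DESeq2 1.42.0, limma 3.58.1 on log2(TPM + 1) and log2(TPM + 0.1), effective-length offsets, a replicate block, and each library left out.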

Additional observations from a re-analysis of the deposited data

How the results depend on the processing

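Lats1, Lats2, Stk3, Stk4 and Tead2 kept their direction, and none passed the threshold, in any alternative that gave a value, with log2 fold changes of -0.11 to -0.03 for Lats1, 0.01 to 0.18 for Lats2, -0.15 to -0.05 for Stk3, -0.06 to -0.0003 for Stk4 and -0.25 to -0.03 for Tead2. Genes passing over all genes tested numbered 327, against 47 with limma on log2(TPM + 1) (30 higher, 17 lower) and 23 on log2(TPM + 0.1) (16 higher, 7 lower); with 1 library left out they numbered 128 to 283. Other Hippo genes passing numbered 0, against 2 without the filter on low counts (Strn3 and Fat1), 2 in DESeq2 (Mob1a and Strn3) and 0 to 1 with 1 library left out, the 1 being Fat1 without shSamd14 replicate 3. YAP and TEAD target genes passing numbered 0 in every setting, of 10 to 18 genes with a value. With 1 library left out, the log2 fold change turned sign for Ppp2r1a (-0.0188 to 0.0484), Taok3 (-0.0394 to 0.0383) and Nt5e (-0.0057 to 0.128). The log2 fold change of Tead3 was -0.60 with limma on log2(TPM + 1), where the pseudocount is near its level, and lay between -1.45 and -1.04 in the other alternatives.

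The libraries of both groups carry replicate numbers, and whether these pair the libraries is not known. The correlation of same-numbered deviations was -0.072, 0.153 and 0.272, and 3 of 6 libraries correlated best with their own number. With 3 libraries a group these values cannot decide it, and the main fit used no pairing. A fit with the replicate number as a block called 682 genes (322 higher, 360 lower) and 3 other Hippo genes: Fat1, Strn3 and Stk26. Genes near 1 CPM, Tead3 and Tead2 among them, are limited by depth, and the 4 trace members had too few counts for the test. Tead2 gave no value with the 1 CPM filter or in limma on TPM, where its level fell below the filter.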
